A study of Mus musculus with 8 samples.

Results

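The insulin-like growth factor (IGF) and insulin receptor system is described here in mouse pancreatic cancer cells through 10 genes, the rows of the count table whose symbol was Igf1r, Insr, Igf2r, Irs1, Irs2, Igfbp2, Igfbp3, Igfbp4, Igfbp6 or Igfbp7, of 39179 genes in all. Each symbol matched 1 row. Of the 10 genes 8 passed the filter on low counts and were tested, and Igfbp2 and Igfbp6 did not. The gene symbols were chosen by name and no expression value entered the rule, although earlier results of these data were known.

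The ligands IGF1, IGF2 and insulin act through the receptor tyrosine kinases IGF1R and INSR, which recruit the adaptors IRS1 and IRS2 and through them phosphoinositide 3-kinase (PI3K) and AKT. IGF2R, the cation-independent mannose 6-phosphate receptor, carries IGF2 and lysosomal enzymes into the cell and has no kinase. The IGF binding proteins are secreted and hold IGFs in the extracellular space, and proteases release the ligands from them. Fibroblast-like stellate cells of the pancreas are a known source of IGF1 in pancreatic tumours, and IGF1R on the cancer cells is its receptor.

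The cells were epithelial cancer cells of the strain FVB/B6 mix, with p48Cre, ROSA_rtTAL+ and p53L+ among the labelled alleles, and carried green fluorescent protein. In this kind of model Cre is driven by the pancreatic p48 (Ptf1a) promoter, and rtTA is a transactivator that doxycycline switches on. Both arms shared this genotype, and the number of independent lines and the presence of doxycycline are details not given in the sources used here. Cells were grown for 72 h with red-labelled pancreatic stellate cells in 0.5% dialyzed serum and then sorted by colour, and polyA RNA of the green cancer cells was sequenced. A neutralizing antibody against sonic hedgehog (SHH), a secreted ligand, was present at 20 µg/mL in one arm (n = 4 libraries) and absent in the other (n = 4). The labels name no control antibody, so the effects of SHH neutralization and of immunoglobulin cannot be told apart. The comparison asks how cancer cell transcripts differ when SHH is neutralized in the shared culture.

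Libraries held 14953255 to 15733280 counts with antibody and 10009711 to 14602784 without, so every antibody library was deeper. Replicate 1 without antibody stood apart: its chi-square over degrees of freedom against the other 3 libraries of its arm was 9.28 to 11.3, where the other pairs within an arm gave 1.73 to 4.62. The cells carried epithelial markers, with a summed level of Krt8, Krt18, Krt19, Epcam and Cdh1 of 5590 to 5830 CPM (counts after scaling for library size) with antibody and 5187 to 5938 CPM without. Of these markers Epcam was higher with antibody (log2 fold change 0.28, edgeR adjusted p = 0.022), and the other 4 did not pass the test. The 11 stellate and fibroblast markers summed to 25.8 to 52.7 CPM with antibody and 26.1 to 47.0 CPM without, and Dcn and Lum had no count in any library. Endothelial markers summed to 11.2 to 14.2 CPM over all libraries, and most of this was Cdh5. Mean levels over the libraries were 12 CPM for Cdh5, 0.766 CPM for Kdr and 0.114 CPM for Pecam1. Acinar and leukocyte markers summed to at most 6.11 CPM in any library, and the acinar genes Cpa1, Amy2a5 and Ptf1a were at 0 counts.

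The libraries of sorted cancer cells held transcripts of the receptors, both adaptors and 3 binding proteins, and almost none of the ligands. With the SHH antibody Igfbp3 fell by 0.23 on the log2 scale, and the other 7 tested genes of the system did not pass the test. The call rate was 1 of 8, where 8.4% of all 13626 tested genes were called (edgeR's quasi-likelihood test with p-values adjusted by Benjamini-Hochberg, threshold 0.05). Over all genes 3.87% were called as lower and 4.53% as higher. At an unadjusted p under 0.05 stood 3 of the 8, Igf1r, Igfbp3 and Igfbp4, where 21.5% of all tested genes did. The median log2 fold change of the 8 genes was -0.09, beside 0.00 for all tested genes. For the same 3 genes the arms did not overlap, with every antibody library lower, where 14.3% of all tested genes had arms that did not overlap. In bulk RNA, fewer cells that express a gene and less RNA per cell cannot be told apart. All fold changes are antibody over no antibody.

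**Figure D1:**
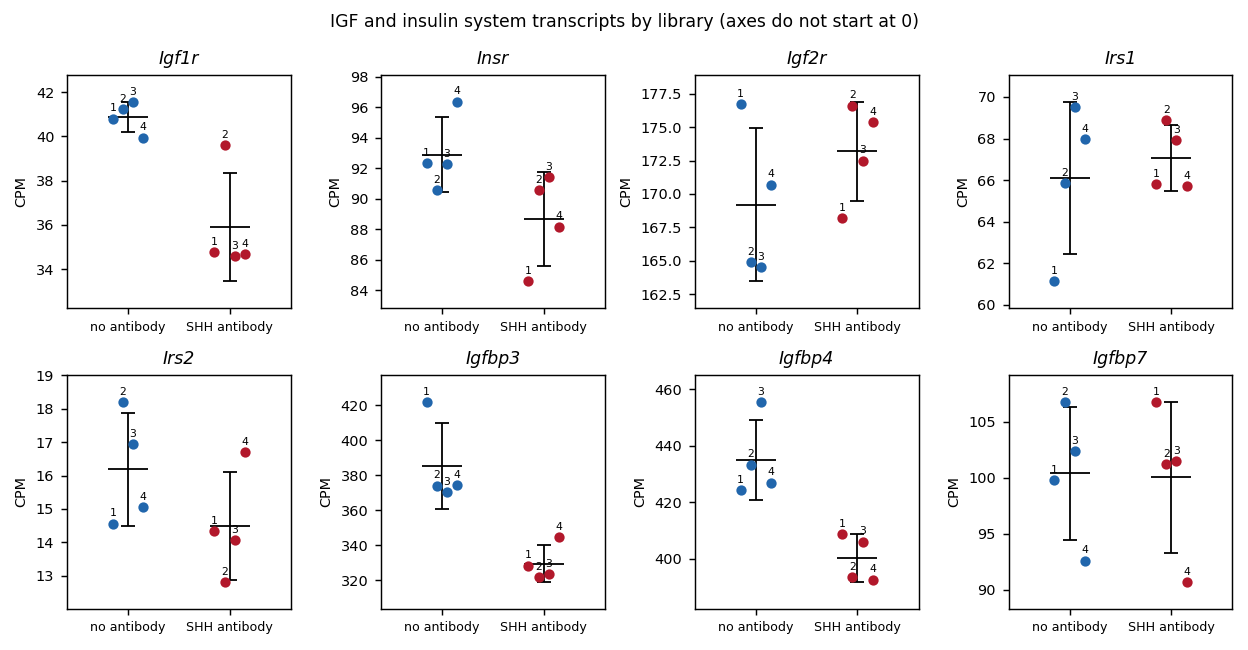
CPM of the 8 tested genes in each library, without antibody (blue) and with SHH antibody (red), with replicate numbers beside the points and the mean and SD as bars. The axes do not start at 0. Arms do not overlap for Igf1r, Igfbp3 and Igfbp4, and they overlap for the other 5 genes.

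Levels per gene length spanned the range from abundant binding proteins to nearly absent ones. On the authors' RPKM scale (counts per kilobase of gene, scaled to the library total) the mean level over the 8 libraries was 114 for Igfbp3, 94.6 for Igfbp4 and 82.6 for Igfbp7, then 18.1 for Igf2r, 9.42 for Insr, 8.55 for Igf1r, 7.29 for Irs1 and 3.81 for Irs2. Igfbp6 followed at 0.302 RPKM and Igfbp2 at 0.00453 RPKM. The ranges over libraries overlapped between the neighbours Igfbp3 and Igfbp4, Igfbp4 and Igfbp7, and Insr and Igf1r, although the gene named first in each pair was higher in all 8 libraries. All other neighbours in this order had ranges that did not overlap. The largest step among the 8 tested genes was the 4.56-fold one between Igfbp7 and Igf2r. Igfbp3, Igfbp4 and Igfbp7 took between 67.8% and 71.0% of the counts of the 10 genes in every library.

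The length the authors used matters for the place of Igf1r, Irs2 and Insr in that order. The length behind the Igf1r RPKM was 4489 bases, and the Igf1r gene of GENCODE M21, on the same assembly, ends 6888 bases further downstream. The Irs2 gene extends 2299 bases further at its downstream end, and the Insr gene 28861 bases further in genomic span. For the other 7 genes the spans of both annotations differed by at most 4 bases. Levels of Igf1r, Irs2 and Insr per length therefore depend on the gene model, whereas their fold changes use 1 model in both arms.

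**Figure D2:**
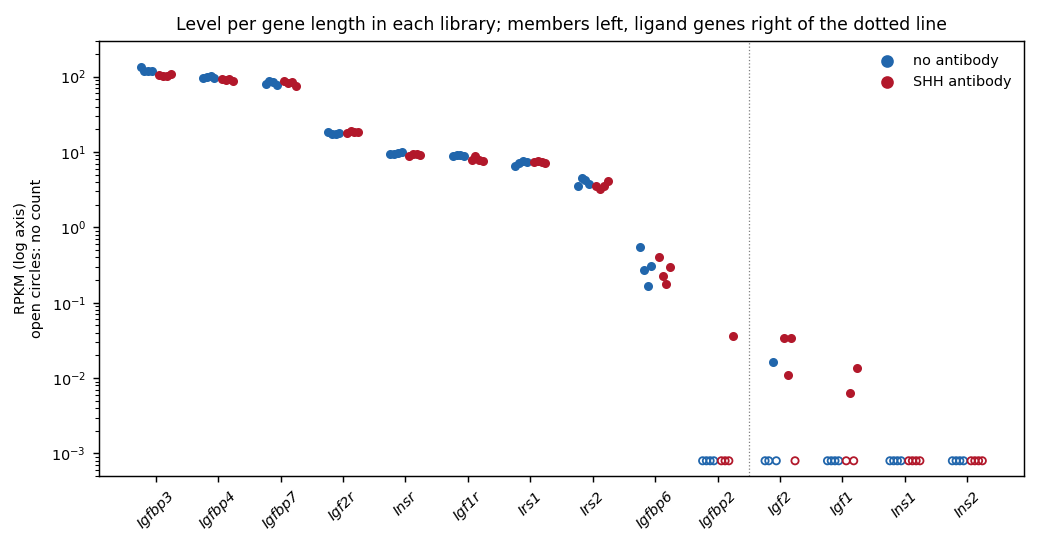
RPKM of the 10 genes of the system, ordered by mean level, and of 4 ligand genes to the right of the dotted line, in each library on a log axis. Open circles mark libraries with no count. Igfbp3, Igfbp4 and Igfbp7 lie at 74.6 RPKM or higher in every library, and the ligand genes lie below Igfbp6 in every library.

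The ligands themselves were at the limit of detection in the cancer cells. Igf1 had 0, 1, 0 and 2 counts in antibody replicates 1 to 4 and no count in the 4 libraries without antibody. Igf2 had 3, 1, 3 and 0 counts in the antibody libraries and 0, 0, 1 and 0 in the others. Ins1 and Ins2 had no count in any library. Here 3 counts are worth 0.19 to 0.30 CPM, a floor that takes in counting error and no other error. None of the 4 ligand genes passed the filter on low counts, so none was tested in the reported fit.

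The stretches before the transcription start of Igfbp3, Igfbp4 and Igf1r are shown because these were the genes whose arms did not overlap. RefSeq promoter windows (GRCm38.p6, 250 bases before to 50 after a start) were found for 9 of the 10 genes, with 10 windows in all, since Igfbp2 has a pair of starts. The 250 bases before the start are printed 5′ to 3′ on the strand of the gene. The RefSeq start of Igf1r lies upstream of the gene start given in the files. Capitals mark the 4 motifs searched on both strands. The first was GACCACCCA, the core bound by the GLI factors of the hedgehog pathway. For FOXO factors, which AKT controls, the letters searched were GTAAACA. For the TATA box, which places the start of many inducible genes, they were TATAAA. The GC box, bound by SP1 in many promoters without a TATA box, was searched as GGGCGG.
Igfbp3 chr11:7213924-7214173, minus strand: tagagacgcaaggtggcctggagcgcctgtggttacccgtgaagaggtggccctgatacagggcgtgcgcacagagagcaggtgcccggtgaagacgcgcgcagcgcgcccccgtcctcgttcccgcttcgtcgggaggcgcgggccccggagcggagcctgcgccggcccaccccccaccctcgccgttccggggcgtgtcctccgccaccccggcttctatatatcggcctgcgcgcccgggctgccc
Igfbp4 chr11:99040994-99041243, plus strand: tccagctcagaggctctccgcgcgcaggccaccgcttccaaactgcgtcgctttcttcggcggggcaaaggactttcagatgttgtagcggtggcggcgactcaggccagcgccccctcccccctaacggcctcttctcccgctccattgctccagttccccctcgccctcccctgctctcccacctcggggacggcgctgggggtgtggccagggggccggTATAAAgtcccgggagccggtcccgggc
Igf1r chr7:67952007-67952256, plus strand: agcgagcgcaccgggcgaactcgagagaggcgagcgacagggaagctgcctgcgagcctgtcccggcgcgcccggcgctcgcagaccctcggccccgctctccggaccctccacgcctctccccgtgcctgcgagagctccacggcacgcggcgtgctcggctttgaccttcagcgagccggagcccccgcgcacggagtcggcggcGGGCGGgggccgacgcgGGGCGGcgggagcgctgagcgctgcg
The window of Igf1r held GC boxes starting 43 and 26 bases before the start and no TATAAA. The Igfbp4 window held TATAAA starting 28 bases before the start and no GC box. In the Igfbp3 window none of the 4 sequences was found. GC boxes occurred in 35.7% and TATAAA in 13.6% of all 32851 RefSeq windows of this length. The GLI core, found in 0.253% of all windows, and the FOXO core, found in 3.65%, were in none of the 10 windows. A match here is a match of letters only, and no match says only that these letters are not in the window. The windows of Igfbp3, Igfbp4 and Igf1r had a GC content of 71.7%, 71.3% and 76.0%, above the median of 52.7% of all windows. They held 37, 27 and 48 CpG dinucleotides, where the median window held 7. The windows of Irs1, Irs2, Igf2r and Igfbp7, whose arms overlapped, were similarly rich, with a GC content of 70.7% to 73.3% and 28 to 41 CpG dinucleotides.

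Igf1r (ENSMUSG00000005533, chromosome 7, 67952859 to 68226780, GRCm38, plus strand) encodes the receptor of IGF1. Its level was 34.8, 39.6, 34.6 and 34.7 CPM in antibody replicates 1 to 4 and 40.8, 41.2, 41.6 and 39.9 CPM without antibody. All antibody libraries lay below all others, but antibody replicate 2 was close to the arm without antibody and far from the other 3 of its own arm. The means were 35.9 ± 2.46 and 40.9 ± 0.696 CPM (SD, n = 4 each). The log2 fold change was -0.19 ± 0.06 SE (edgeR quasi-likelihood, adjusted p = 0.0607), with a 95% interval from 0.806-fold to 0.959-fold. Without antibody replicate 2 it was -0.24 and passed the test (adjusted p = 0.0339). It also passed when replicates 1 and 4 without antibody were both left out (adjusted p = 0.0364) and with sample weights in limma voom (adjusted p = 0.0471). The former fit keeps replicates 2 and 3 alone in that arm. In the other 16 of 19 alternatives Igf1r did not pass.

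Insr (ENSMUSG00000005534, chromosome 8, 3150922 to 3279617, minus strand) encodes the insulin receptor, the closest relative of IGF1R, with which it forms hybrid receptors. Insr stood at 84.6, 90.5, 91.4 and 88.2 CPM with antibody and at 92.3, 90.6, 92.3 and 96.4 CPM without. The arms overlapped by the narrow margin between antibody replicate 3 and replicate 2 of the other arm. On the log2 scale the change was -0.07 ± 0.05 SE (edgeR, adjusted p = 0.451; 95% interval 0.890-fold to 1.02-fold). The ratio of Insr to Igf1r RPKM within a library was 1.15 ± 0.0712 with antibody and 1.06 ± 0.0452 without (SD, n = 4 each), and the ratios of the arms overlapped.

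Igf2r (ENSMUSG00000023830, chromosome 17, 12682406 to 12769664, minus strand) was the most abundant receptor of the system. It stood at 168, 177, 173 and 175 CPM with antibody and at 177, 165, 165 and 171 CPM without. Both arms covered nearly the same range, and replicate 1 without antibody was the highest of its arm. Igf2r had a change of 0.03 ± 0.05 SE on the log2 scale (edgeR, adjusted p = 0.734; 95% interval 0.959-fold to 1.09-fold). Within libraries the ratio of Igf2r to Igf1r RPKM was 2.12 to 2.41 with antibody and 1.88 to 2.06 without. The arms did not overlap in this ratio, which takes in Igf1r, whose own arms did not overlap, and is not a separate result. Airn, an antisense RNA known from the imprinting of Igf2r, overlaps it by 28354 bases on the other strand. Airn had 48 to 80 counts in the antibody libraries and 44 to 73 in the others (log2 fold change -0.29, edgeR adjusted p = 0.34). Since the strand setting of the counting is not given, reads of Igf2r and Airn cannot be told apart with certainty.

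The adaptors Irs1 and Irs2 link the receptors to PI3K, and neither passed the test. Irs1 (ENSMUSG00000055980, chromosome 1, 82233101 to 82291416, minus strand) stood at 65.8, 68.9, 67.9 and 65.7 CPM with antibody and at 61.1, 65.8, 69.5 and 68.0 CPM without. The antibody libraries lay inside the range of the other arm, whose lowest value was that of replicate 1. The fit gave Irs1 0.02 ± 0.05 SE on the log2 scale (edgeR, adjusted p = 0.868; 95% interval 0.941-fold to 1.10-fold), and -0.02 without replicate 1 of that arm. Irs2 (ENSMUSG00000038894, chromosome 8, 10986980 to 11008458, minus strand) is the adaptor whose transcript is known to be induced by FOXO factors when insulin signalling is low. Irs2 had 14.3, 12.8, 14.1 and 16.7 CPM with antibody and 14.6, 18.2, 16.9 and 15.1 CPM without. Its libraries were more scattered than those of the other tested genes of the system, with a coefficient of variation of 11.2% and 10.5% in the arms, and the arms overlapped. Irs2 was at -0.15 ± 0.10 SE on the log2 scale (edgeR, adjusted p = 0.395), with a 95% interval from 0.783-fold to 1.03-fold that was the widest of the 8. The ratio of Irs1 to Irs2 RPKM was 2.06 ± 0.263 with antibody and 1.81 ± 0.164 without (SD, n = 4 each), with arms that overlapped.

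Igfbp3 (ENSMUSG00000020427, chromosome 11, 7206086 to 7213923, minus strand) encodes the main carrier of IGFs in blood, which also binds them in tissues. Its level was 328, 322, 323 and 345 CPM in antibody replicates 1 to 4 and 422, 374, 370.3 and 374 CPM without antibody. Its promoter window held none of the motifs searched. Every antibody library was below every other library, and replicate 1 without antibody stood above the remaining 3 of its arm, which were close to each other. The means were 330 ± 10.4 and 385 ± 24.6 CPM (SD, n = 4 each). The log2 fold change was -0.23 ± 0.05 SE (edgeR quasi-likelihood, adjusted p = 0.00547), a fold of 0.855 with a 95% interval from 0.796 to 0.919. Without replicate 1 of the arm without antibody, the library that stands apart, it was -0.18 (adjusted p = 0.00244). Without replicates 1 and 4 it was -0.18 as well (adjusted p = 0.000692). The latter fit keeps replicates 2 and 3 alone in that arm, the pair closest to each other over the tested genes. Igfbp3 was called as lower in all 19 alternatives, with log2 fold changes from -0.25 to -0.18.

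Igfbp4 (ENSMUSG00000017493, chromosome 11, 99041244 to 99054392, plus strand) encodes a binding protein that inhibits IGF action and is cut by the protease PAPP-A. It stood at 409, 394, 406 and 393 CPM with antibody and at 424, 433, 456 and 427 CPM without. The arms did not overlap, and the gap between them was smaller than the range of the arm without antibody. The means were 400.2 ± 8.39 and 435 ± 14.1 CPM (SD, n = 4 each), and the log2 fold change was -0.12 ± 0.04 SE (edgeR, adjusted p = 0.106), with an interval of the fold from 0.863 to 0.981. Igfbp4 passed the test without replicate 1 of the arm without antibody (log2 fold change -0.13, adjusted p = 0.0272) and without its replicates 1 and 4 (-0.15, adjusted p = 0.00259). It also passed with DESeq2 (adjusted p = 0.0397) and with sample weights (adjusted p = 0.0155), and not in the other 15 alternatives.

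Igfbp7 (ENSMUSG00000036256, chromosome 5, 77349240 to 77408045, minus strand) encodes a related secreted protein that binds insulin and binds IGFs only weakly. It had 107, 101, 102 and 90.7 CPM with antibody and 99.8, 107, 102 and 92.6 CPM without. The ranges nearly coincided, with replicate 4 lowest in both arms. Its change was 0.00 ± 0.06 SE on the log2 scale (edgeR, adjusted p = 0.992; 95% interval 0.921-fold to 1.08-fold). Its last 85 bases overlap Polr2b on the other strand, a gene with a log2 fold change of 0.00 (edgeR, adjusted p = 0.97). Whether the fold changes of Igfbp3, Igfbp4 and Igfbp7 differ from each other was not tested.

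Igfbp6 and Igfbp2 were too low for the test. Igfbp6 (ENSMUSG00000023046, chromosome 15, 102144362 to 102149511, plus strand), a binding protein that prefers IGF2, had 7, 4, 3 and 5 counts in antibody replicates 1 to 4 and 8, 3, 2 and 5 in the others. Igfbp2 (ENSMUSG00000039323, chromosome 1, 72824503 to 72852474, plus strand) had 1 count, in antibody replicate 4, and none in the other 7 libraries. No fold change is given for either gene. The 5 binding proteins took 0.0818% to 0.0853% of the counts of a library with antibody and 0.0895% to 0.0934% without. These shares did not overlap between the arms. Igfbp3 and Igfbp4, whose own arms did not overlap, held most of the counts behind them, so the shares are not a separate result.

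Binding proteins are also made by stromal cells, so the level of stellate markers is given beside them. Of the 11 markers 5 were tested, and their median log2 fold change was 0.47, with 4 above 0 and 1 below. Pdgfra fell (log2 fold change -0.84, edgeR adjusted p = 0.00271), and none of the other 4 passed the test. Those were Col3a1 at 0.66 (adjusted p = 0.156), Pdgfrb at 0.61 (adjusted p = 0.473), Col1a2 at 0.47 (adjusted p = 0.271) and Col1a1 at 0.36 (adjusted p = 0.169). Col1a1, an abundant collagen transcript of stellate cells, had 15.1 ± 3.86 CPM in the antibody arm and 11.6 ± 2.52 CPM in the other (SD, n = 4 each). Igfbp3, Igfbp4 and Igfbp7 were each above the summed level of the 11 markers in every library. That comparison cannot tell which cells made the transcripts, since no library of stellate cells gives their levels there. The part of stellate cell RNA in the binding protein values was not tested.

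Around these genes, 40 further genes of the pathway were listed by role, of which 28 were tested. Htra1 fell and Foxo3 rose, and 26 did not pass the test. That is a call rate of 7.14%, where 8.4% of all tested genes were called, and the median log2 fold change was 0.04. Among the proteases that cut binding proteins and the inhibitors of such proteases, Htra1 was the 1 called gene of 3 tested.

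Htra1 (ENSMUSG00000006205, chromosome 7, 130936111 to 130985660) encodes a secreted serine protease known to cut IGF binding proteins and matrix proteins. It stood at 32.5, 28.5, 29.7 and 29.0 CPM with antibody and at 40.9, 38.1, 36.7 and 34.95 CPM without. The arms did not overlap, and the log2 fold change was -0.33 ± 0.07 SE (edgeR, adjusted p = 0.00243), with an interval of the fold from 0.723 to 0.875. It was called as lower in all 19 alternatives, from -0.38 to -0.29. Fgfr2 on the other strand overlaps Htra1 by 49550 bases and had 0 counts in every library. With the strand setting of the counting not given, reads of Htra1 and Fgfr2 cannot be told apart with certainty. Stc1 and Stc2, the stanniocalcins that inhibit PAPP-A proteases, were at -0.02 (adjusted p = 0.876) and -0.06 (adjusted p = 0.516) on the log2 scale. Pappa had 1 count in each of 2 libraries and Pappa2 between 1 and 4 counts per library, so neither was tested.

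Foxo3 (ENSMUSG00000048756, chromosome 10, 42181841 to 42276755) encodes a transcription factor that AKT keeps out of the nucleus. It had 50.1, 45.2, 51.1 and 50.4 CPM with antibody and 40.1, 41.8, 40.8 and 44.1 CPM without. The antibody libraries were all higher, antibody replicate 2 by the smallest margin. Its change on the log2 scale was 0.24 ± 0.06 SE (edgeR, adjusted p = 0.0127), with an interval of the fold from 1.08 to 1.28. It lost its call without antibody replicate 3 (adjusted p = 0.0608) and on log2(RPKM + 1) and log2(RPKM + 0.1) (adjusted p = 0.0601 for each). Foxo3 was the 1 called gene of the 11 tested in the PI3K and AKT list. The most abundant of that list, Akt1, an AKT kinase, was at 0.03 on the log2 scale (adjusted p = 0.772), and Pik3r2, a regulatory subunit of PI3K, at -0.07 (adjusted p = 0.436). Pik3r2 passed the test without replicates 1 and 4 of the arm without antibody (-0.14, edgeR adjusted p = 0.0135), and its log2 fold change was -0.11 to -0.04 without any single library.

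In the remaining lists no gene was called. Of the 12 other receptors and adaptors 9 were tested, led in level by Shc1, an adaptor to the RAS pathway (log2 fold change 0.08, edgeR adjusted p = 0.301), and Ptpn11, a phosphatase that relays growth factor signals (0.06, adjusted p = 0.496). Irs3, Irs4 and Insrr were too low to be tested. All 4 genes of the mannose 6-phosphate route, which IGF2R serves, were tested. Gnptab, which makes the mannose 6-phosphate tag, had 103 ± 3.82 CPM in the antibody arm and 93.5 ± 2.57 CPM in the other (SD, n = 4 each) and differed by 0.15 on the log2 scale (edgeR, adjusted p = 0.0627). M6pr, the other mannose 6-phosphate receptor, was at 0.00 on that scale (adjusted p = 0.983). Of the other binding proteins and partners, Igfbp5 alone could be tested (1.96 ± 0.683 against 1.36 ± 0.361 CPM, log2 fold change 0.49, edgeR adjusted p = 0.317). It was at 0.28 without antibody replicate 3 and at 0.87 without replicates 1 and 4 of the other arm, and passed in no alternative. Igfbp1 had no count in any library.

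**Figure D3:**
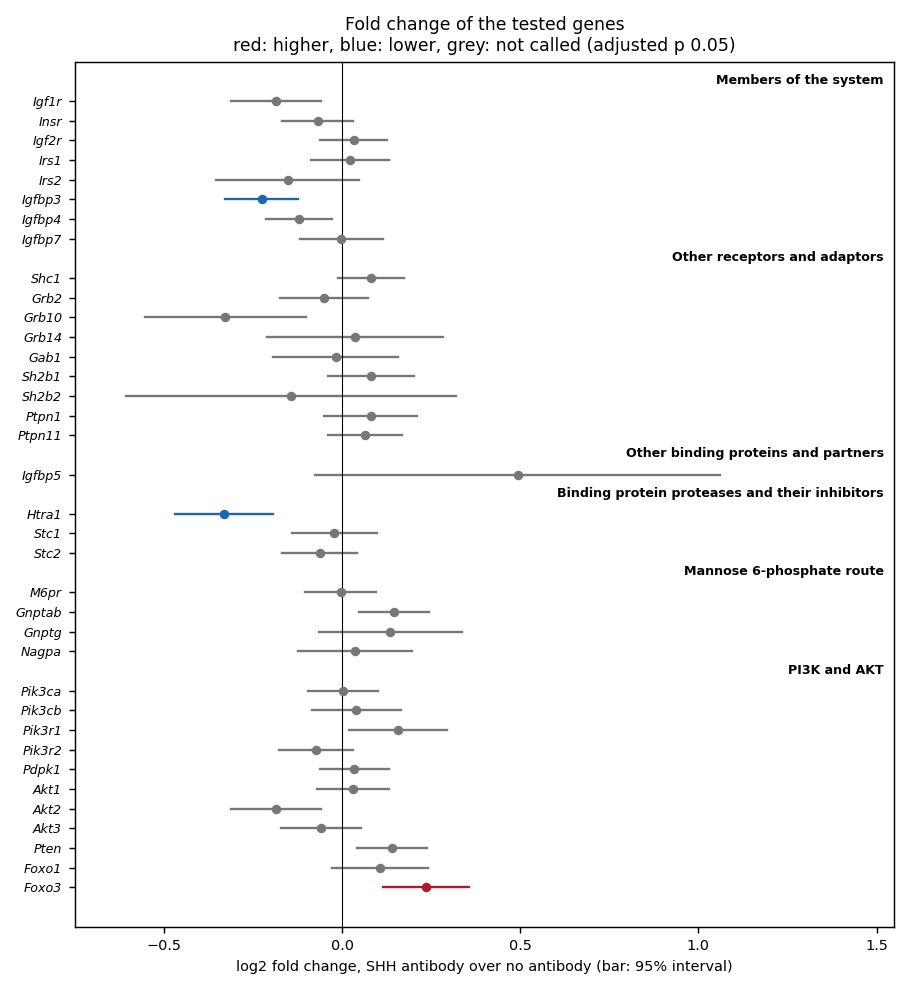
Log2 fold change (antibody over no antibody) with its 95% interval for the 8 tested genes of the system and the 28 tested genes of the pathway lists. Igfbp3 and Htra1 (blue) are lower with antibody, Foxo3 (red) is higher, and the grey genes did not pass the test.

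Leaving out each library in turn, Igfbp3 was called in 8 of 8 fits, with adjusted p (edgeR) from 0.00244 to 0.0331. Igf1r and Igfbp4, which were not called with all libraries, each passed in 1 of 8 fits. For all 3 genes the direction was down in every alternative, including RLE and upper quartile scaling.

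**Figure D4:**
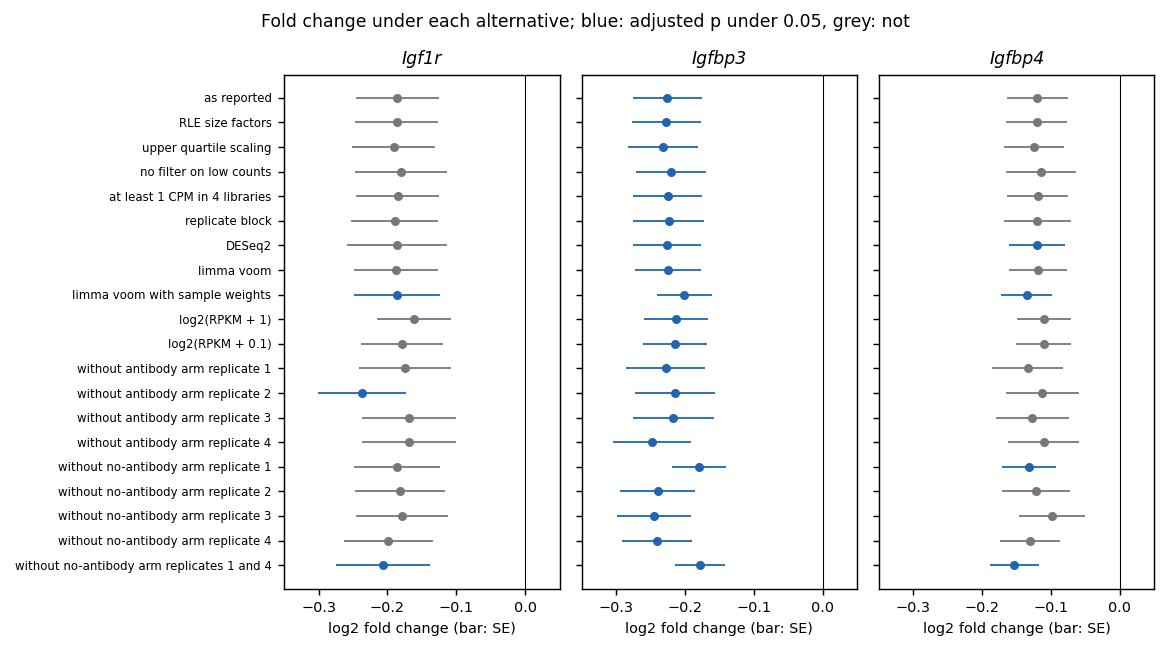
Log2 fold change and standard error of Igf1r, Igfbp3 and Igfbp4 as reported (top) and under 19 alternatives of scaling, filter, test and libraries. Blue points passed the adjusted p of 0.05: all for Igfbp3, 3 of the alternatives for Igf1r and 4 for Igfbp4.

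Genes with the most similar pattern were sought for Igf1r and Igfbp3 among 9869 other tested genes that averaged 10 CPM or more, by Pearson r of log2(CPM + 1) over the 8 libraries. For Igfbp3 these were Csf3, a granulocyte growth factor (r = 0.994), the noncoding RNA gene 5830416P10Rik (r = 0.988) and Sema3c, a secreted semaphorin (r = 0.983). All 3 were lower with antibody, with log2 fold changes of -0.39, -0.46 and -0.36 (edgeR adjusted p = 0.00943, 0.00063 and 0.000109). This direction largely follows from the choice of genes by likeness to Igfbp3, whose arms did not overlap. For Igf1r they were Slc25a20, a mitochondrial carnitine carrier (r = 0.977), Pot1b, a telomere protein (r = 0.966), and Hps4, of lysosome-related organelle biogenesis (r = 0.953), none of which passed the test. The 8 points share their arms and the library depth that differs between the arms. Without replicate 1 of the arm without antibody the 6 coefficients were 0.950 to 0.987. They are a description with no test.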

How the data were processed

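PolyA RNA of sorted cancer cells was sequenced from strand-specific libraries, per the labels' protocols. Per the submitters' processing notes, base calling used CASAVA 1.8.2 and alignment TopHat2 2.0.9 on GRCm38. No counting tool, annotation release or strand setting is named in these sources. What the authors deposited was raw counts per Ensembl gene and RPKM values for the same 8 libraries. These RPKM equal the count over gene length and column total, with 1 length per gene, for all 10 genes of the system.

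Arms follow the treatment label. An allele that both arms share is not reported here. In sample titles a minus sign marks the antibody. The count test was that of edgeR 4.0.16 under R 4.3.3 (filterByExpr, TMM, quasi-likelihood F test with the arm as the only term, Benjamini-Hochberg over 13626 genes at 0.05). CPM use TMM-scaled totals, and standard errors come from the F statistic. The test was also run on simulated counts, with the outcome not given here. Alternatives were scaling, filters, a replicate block, DESeq2 1.42.0, limma 3.58.1 (voom, sample weights, RPKM as log2 with pseudocount 1 or 0.1), and fits without single libraries. A further fit left out replicates 1 and 4 without antibody. It kept replicates 2 and 3, the pair of that arm with the lowest chi-square over degrees of freedom (1.79). The spread within that arm is smaller by this choice. The genes and lists were chosen with earlier results of these data known. Named pathway genes are those called, and the 2 most abundant tested ones of each list. Genes too low for the test are named by choice after their values were seen.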

Additional observations from a re-analysis of the deposited data

Results flagged for a closer look

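In each arm the value farthest from the others was compared with the range of the arm (Dixon's test at 95%) in 20 groups, of which chance flags about 1 in 20. That rate does not hold for Igfbp2. Without antibody it had no count and so no range to compare, and with antibody 3 libraries were tied at no count. Igf1r in antibody replicate 2, at 39.6 CPM, lay far from the other 3 antibody libraries, and the gap took 0.964 of the range. Igfbp3 in replicate 1 without antibody, at 422 CPM, lay far from the other 3 libraries of its arm, with a gap of 0.922 of the range. The level of Igfbp2 in antibody replicate 4, 0.0671 CPM, was marked because the other 3 libraries had no count, and it rests on a single count.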

How the results depend on the processing

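Igfbp3 and Htra1 kept their call in all 19 alternatives. The number of called genes of the system, 1 as reported, was 2 with DESeq2, 3 with sample weights, 3 without replicates 1 and 4 of the arm without antibody and 1 to 2 without any single library (2 without antibody replicate 2 or without replicate 1 of the other arm). The pathway lists had 2 called genes as reported, 5 with sample weights and without replicates 1 and 4, 1 on log2(RPKM + 1) and on log2(RPKM + 0.1), and 1 to 4 without any single library. Over all genes 1144 were called as reported, 1012 with DESeq2, 1663 with sample weights, 675 on log2(RPKM + 1) and 670 on log2(RPKM + 0.1). Calls over all genes numbered 2262 without replicates 1 and 4, and 679 to 1485 without any single library. The replicate block gave 1005 called genes, 1 of the system and 2 of the lists. It changed no call among the tested genes of the system and the named genes of the pathway lists. To look for pairing, deviations of log2(CPM + 1) from the arm mean of each gene were correlated between the arms. The genes used were tested ones that averaged 10 CPM or more. By these deviations the replicate numbers did not pair the samples (same-numbered libraries -0.10 to 0.08). No antibody library correlated best with its own number. Values near 0 changed sign. Igfbp7 was 0.0033 without a filter, 0.0035 on log2(RPKM + 1) and on log2(RPKM + 0.1), and -0.0417 to 0.042 without any single library. Irs1 was -0.0157 without replicates 1 and 4 and -0.0164 to 0.0447 without any single library. Stc1 was 0.0145 with sample weights, 0.0167 without replicates 1 and 4 and -0.0518 to 0.0305 without any single library. M6pr was 0.0023 without a filter, 0.016 with sample weights, 0.0077 and 0.0079 on log2(RPKM + 1) and log2(RPKM + 0.1), 0.0299 without replicates 1 and 4 and -0.0344 to 0.0175 without any single library. Akt1 was -0.0474 without replicates 1 and 4. The cause of these shifts was not tested. The ligands, Igfbp2 and Igfbp6 had at most 8 counts in any library and did not pass the filter of the reported fit. The fit without a filter and DESeq2 took in all 10 genes of the system, and no fold change of these low genes is given from them. Whether the low genes differ between the arms is left without a statement.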
